A study of Mus musculus with 12 samples.

Results

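The 77 genes described here encode the proteins of the cytosolic ribosome. They are the rows of both count tables whose symbol is Rpl or Rps followed by a number and at most 1 of the letters a, l or x, together with Rplp0, Rplp1, Rplp2 and Rpsa, where the mean was at least 1 CPM (the usual depth-scaled count) over the 12 libraries. The tables hold 31017 genes and 80 symbols of this form. The 3 left out were Rpl10l and Rpl39l, which had no count, and Rpl3l, at 0.0716 CPM, while the lowest gene kept was Rpl29 at 53.6 CPM. Of the 77, 46 belong to the large (60S) subunit and 31 to the small (40S) subunit, and all 77 passed the filter on low counts that left 13763 genes for testing.

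The cells were 4T1, a mouse mammary carcinoma line, and polyA RNA was sequenced from 6 groups of 2 libraries each. Controls were pools of clones that had received control guide RNAs by nucleofection. Clone 1 and clone 2 were each a single Etv4 knockout clone, made with Cas9 and a guide RNA against Etv4, so a feature of 1 clone cannot be told apart from the knockout within that clone. Etv4 encodes a transcription factor of the ETS family. Each genotype was grown in 2D on plastic and in 3D in collagen I gels, and gels were broken up with collagenase before RNA extraction, which plastic cultures were not. The format, the digestion and the table a library was deposited in (1 table per format) cannot be told apart. Since no label states that replicates came from separate cultures, each p-value is relative to the spread among these libraries alone, which may be technical. In bulk RNA, fewer cells of a kind and less RNA per cell cannot be told apart either.

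Ribosomal proteins assemble with ribosomal RNA in the nucleolus into the 2 subunits, and each protein is normally present once per ribosome, apart from the stalk proteins of the large subunit. Their mRNAs are short and abundant in growing cells. Most begin with a C followed by a run of pyrimidines, the 5′ terminal oligopyrimidine (TOP) motif, through which mTORC1 controls their translation. Myc is known to raise transcription of ribosomal protein genes and of the factors that build ribosomes.

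Total counts ranged from 12277023 to 18702650 in 2D and from 26525130 to 33210413 in 3D. On plastic, Etv4 read 78.1 and 76.0 CPM in the control libraries, 49.8 and 49.2 CPM in those of clone 1, and 49.2 and 46.0 CPM in those of clone 2. The collagen libraries had 94.7 and 99.4 CPM (control), 69.8 and 69.1 CPM (clone 1) and 86.6 and 91.5 CPM (clone 2). Etv4 mRNA was thus lower in both clones in 2D and in clone 1 in 3D, but not past the test in clone 2 in 3D (log2 fold change -0.12 ± 0.06 SE, adjusted p = 0.116, edgeR's quasi-likelihood test). An mRNA count does not report on the protein. The 6 epithelial markers (Epcam, Krt7, Krt8, Krt18, Krt19 and Cdh1) were all detected and summed to between 2654 and 4636 CPM per library. Of other cell types, the 6 fibroblast markers summed to 4.24–7.49 CPM in 2D and 18.9–24.6 CPM in 3D, with Pdgfrb and Lum at 0 in every group. The 6 leukocyte markers summed to 1.73–5.63 and 7.68–10.8 CPM, with Lyz2 at 0 in all but the 2D controls, and the 6 endothelial markers to 8.35–15.4 and 3.68–5.39 CPM, with Emcn at 0 in every group. These sums moved with format, and their part in the results below was not tested.

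Since ETS factors bind a GGAA core, the promoters were searched for CCGGAAGT, a strong ETS sequence, on both strands. The RefSeq promoter table (GRCm38.p6, 250 bases before to 50 after each gene's start) held 57 of the 77 genes. CCGGAAGT was present in 11 of the 57 (19.3%), against 1096 of all 27025 promoters of the same length (4.06%). Those 27025 are 1 per gene, whether or not the gene was among the 13763 tested. Promoters of genes matched in level to the set were not searched apart. The 11 were Rpl11, Rpl26, Rpl31, Rpl35, Rpl37, Rpl41, Rps18, Rps25, Rps27l, Rps6 and Rpsa. The windows below are those that lie upstream of the start in full, read along the gene's strand, with the motif (CCGGAAGT or its reverse complement) in capitals; they are shown for the bases around the motif, which the search itself fixed.
Rpl35: aggaaggcaggACTTCCGGgaagcggaggg
Rpl37: accaagacccgCCGGAAGTagtttcctggg
Rpl41: tagtaaggcagCCGGAAGTcgctgtctcga
Rps18, farther from the start: agaaggccgaaCCGGAAGTtatagctccgg
Rps18, nearer to the start: agaagcaatttCCGGAAGTggacctccggg
Rps25: cacccattgccCCGGAAGTactctctcgag
Rps6: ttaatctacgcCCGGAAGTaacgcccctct
Rpsa: tcgccccagctACTTCCGGcctggggtctg
In GRCm38.p6 these windows lie at chr2:39005241-39005270, chr15:5116579-5116608, chr10:128549206-128549235, chr17:33955804-33955833, chr17:33955722-33955751, chr9:44407630-44407659, chr4:86857440-86857469 and chr9:120127566-120127595. A match is a description of letters and shows no binding.

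The E-box CACGTG, the sequence that Myc and Max bind, was in 8.77% of the 57 promoters and 7.21% of all, and TATAA was in 26.3% and 25.5%. A run of at least 5 pyrimidines that opens with C and starts within 10 bases of the annotated start was found in 30 of 57 (52.6%) and in 30.6% of all promoters. This search is limited by the annotated starts, which were the same base in RefSeq and GENCODE for 12 of the 57 genes and lay more than 100 bases apart for another 12 (up to 891 bases, for Rps15a). Of the genes whose start is the same base in both annotations, Rpl11, Rpl13, Rpl24, Rpl35a, Rplp0 and Rps28 had no such run. For 3 that had one, the window is shown with 10 bases before the start and 20 from it and the run in capitals. In each of the 3 the run opens after the annotated start and not on it.
Rpl18: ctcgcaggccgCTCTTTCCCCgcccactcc
Rpl34: tccctgacgtaCTTCCTgtccggcgccgtc
Rps2: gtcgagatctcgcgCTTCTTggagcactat
They lie at chr7:45718061-45718090, chr3:130730379-130730408 and chr17:24720053-24720082.

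Mean levels over the 12 libraries, as CPM scaled by TMM, ran from 53.7 CPM (Rpl29) to 2366 CPM (Rpsa), with a median of 509. The most abundant per kilobase of annotated exon were the stalk proteins Rplp1 (2093 CPM per kb) and Rplp0 (1221), which recruit elongation factors to the ribosome, and Rps15 (1078) of the small subunit head. Per kilobase of the principal mRNA the order changed to Rps12 (2650), Rplp1 (2093) and Rpl41 (2081), so ranks within the set depend on the transcript model. The genes have many processed pseudogenes, and a median of 47.5% of the 75-base windows of their mRNAs also occur in other annotated genes. That share ranged from 0 to 98.5%, the highest in Rps27, and 33 genes were over 50%. The 9 pseudogene rows of the tables summed to 4.87 to 5.36 CPM in 2D and 1.66 to 2.68 CPM in 3D. Exons of 37 genes overlap another annotated gene, 15 of them over more than 10% of their length, and whether the counting used strand is not given in the sources used here.

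Ribosomal protein transcripts took a smaller share of the RNA in collagen than on plastic in each genotype. They made up 7.22% and 6.93% of all counts in the 2D controls and 3.09% and 3.13% in the 3D controls. Clone 1 had 7.26% and 7.04% in 2D and 2.78% and 2.64% in 3D. Clone 2 had 7.46% and 7.61% in 2D and 3.03% and 3.07% in 3D. Every 3D library was below every 2D library. Gm26917 and Gm42418, which are abundant noncoding transcripts, moved with format in the other direction, from 1.86–2.15% of counts in 2D to 12.4–16.9% in 3D. With both left out of the total, the share was 7.08–7.75% in 2D and 3.17–3.68% in 3D, so the gap stayed. Transcripts of the mitochondrial genome made up 0.31–0.51% of counts in 2D and 1.45–1.76% in 3D, and their part in the lower share of the set was not tested. The ratio of large to small subunit counts was 1.503 to 1.587 in 2D and 1.473 to 1.542 in 3D.

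**Figure D1:**
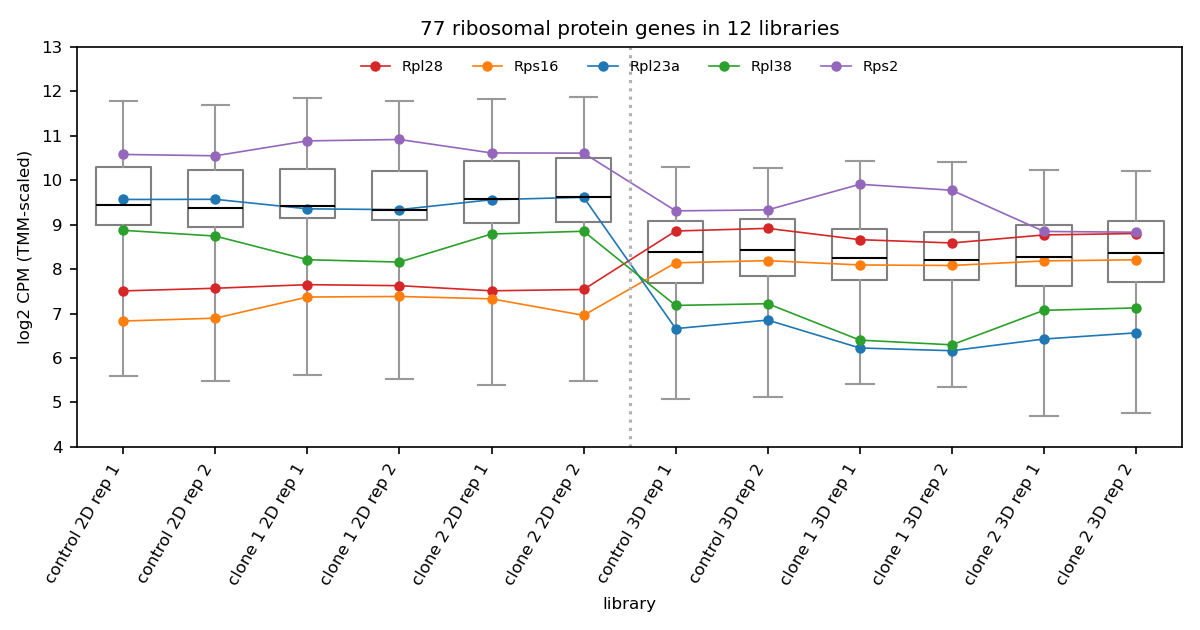
Level of the 77 ribosomal protein genes in each library, as log2 of TMM-scaled CPM. Boxes span the quartiles with the median as a bar, whiskers reach the lowest and highest gene, and coloured points are 5 single genes, with lines only to join points of 1 gene. The boxes sit lower in the 6 collagen libraries, while Rpl28 and Rps16 sit higher there.

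In control cells 73 of the 77 genes fell and 3 rose in 3D against 2D, with a median log2 fold change of -1.19 (quartiles -1.47 and -0.85). Of all 13763 genes tested, 35.6% were called lower and 41.7% higher in that comparison (77.2% in either direction), with a median of 0.10. The fall covered both subunits, with 44 of 46 large subunit genes lower (median -1.15) and 29 of 31 small subunit genes lower (median -1.26). In clone 1, 74 fell and 3 rose (median -1.34, background 35.3% lower, 39.8% higher and 75.1% either), and in clone 2, 74 fell and 3 rose (median -1.46, background 37%, 42.5% and 79.5%). Over the 20 alternatives in processing that fit both formats, the control median stayed between -1.28 and -1.13.

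Rpl23a, which lines the rim of the peptide exit tunnel and contacts the signal recognition particle, showed the largest fall. It was at 759 and 761 CPM in 2D controls and at 101 and 116 in 3D controls. That is a 7.01-fold difference (log2 fold change -2.81 ± 0.06 SE, adjusted p = 1.95e-23, edgeR's quasi-likelihood test with Benjamini-Hochberg adjustment, as for all adjusted p-values here). Rpl23a lies at chr11:78180932-78183584, and 62.3% of its exon length overlaps Tlcd1 and the small nucleolar RNA gene Snord42b, so its reads may be shared with them. Rps21, a small subunit protein, went from 431 and 435 CPM to 83.0 and 91.0 (log2 fold change -2.31 ± 0.06 SE, adjusted p = 1.75e-21). Rps9, which helps decode mRNA in the small subunit, went from 1050 and 1040 CPM to 254 and 263 (-2.02 ± 0.05 SE, adjusted p = 1.12e-21). In each of these the 2 groups were far apart relative to the gap between replicates.

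Rpl28, Rps16 and Rpl29 went the other way. Rpl28, a large subunit protein at chr7:4792874-4795066, was at 182 and 190 CPM in 2D controls and 464 and 484 in 3D controls (log2 fold change 1.35 ± 0.05 SE, adjusted p = 1.89e-18). It was also higher in 3D in clone 1 (201 and 198 CPM against 406 and 385) and in clone 2 (183 and 186 against 437 and 446). Rps16, whose tail reaches the decoding site, rose from 114 and 119 CPM to 283 and 292 (1.30 ± 0.07 SE, adjusted p = 5.58e-15). Rpl29 was at 48.4 and 44.7 CPM in 2D and 63.5 and 66.3 in 3D (0.48 ± 0.07 SE, adjusted p = 1.58e-06). Rps26, which contacts mRNA near the exit channel and is named here after its values were seen, was the 1 gene of 77 that did not pass in controls, with 645 and 693 CPM in 2D and 709 and 739 in 3D (0.11 ± 0.06 SE, adjusted p = 0.0624). Of the mRNA windows of 75 bases, 33.0% in Rpl28, 35.5% in Rps16 and 56.8% in Rpl29 also occur in other genes, which for Rpl28 and Rps16 is below the median of the set.

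**Figure D2:**
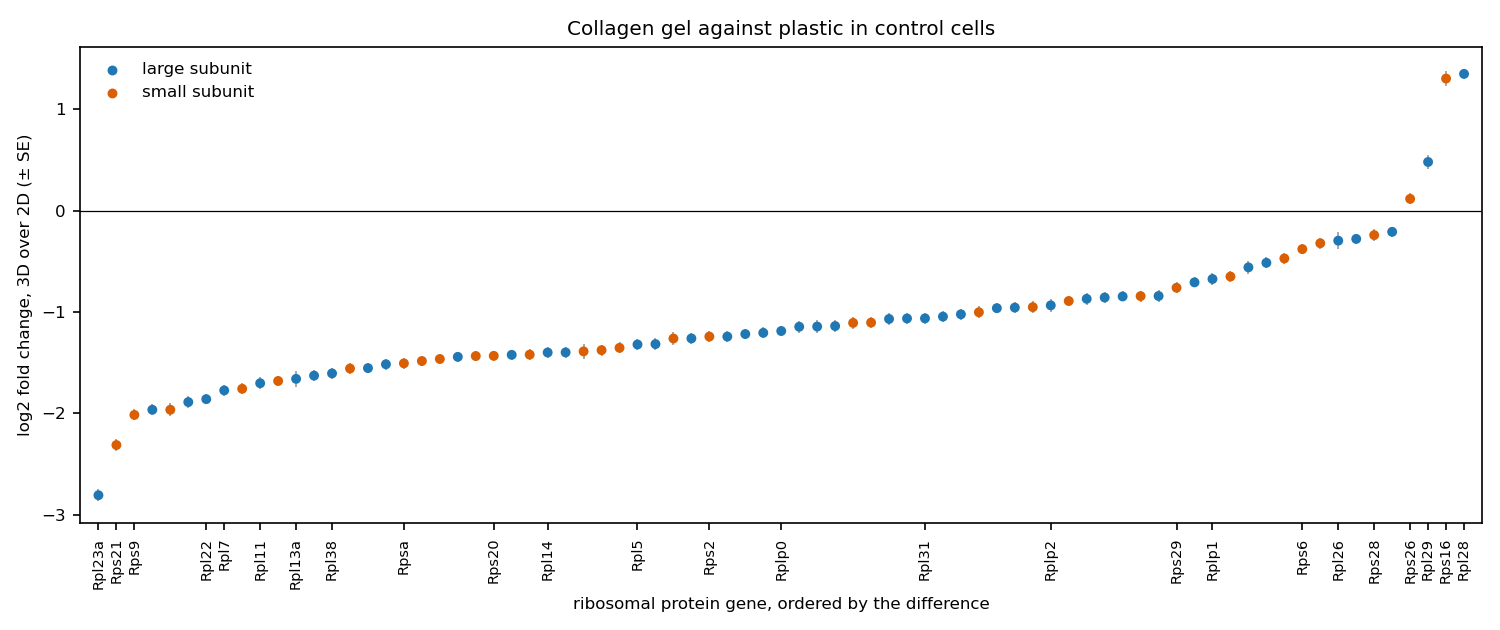
Log2 fold change of each of the 77 genes in control cells, 3D over 2D, ordered by size, with bars of 1 SE from edgeR, colours for the subunit and names for some genes of the text. The genes run from Rpl23a at -2.81 to Rpl28 at 1.35, and both subunits are spread along the whole order.

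Genes with defined roles fell by unequal amounts. Among the stalk genes, Rplp0 went from 2528 and 2456 CPM in 2D controls to 1067 and 1120 in 3D controls (log2 fold change -1.19 ± 0.05 SE). Rplp1 went from 1327 and 1272 to 778 and 849 CPM (-0.68 ± 0.06 SE), and Rplp2 from 428 and 432 to 212 and 237 CPM (-0.94 ± 0.06 SE). The stalk thus fell as a whole, with Rplp0 falling most and Rplp1 least. Rpl5 and Rpl11, which carry 5S ribosomal RNA and bind Mdm2 when ribosome assembly fails, fell by 1.32 ± 0.06 and 1.70 ± 0.06 on the log2 scale. Rpl11 was at 713 and 717 CPM in 2D and 205 and 234 in 3D. Rpsa, also known as the laminin receptor, fell from 3519 and 3330 to 1174 and 1234 CPM (log2 fold change -1.51 ± 0.05 SE). Rps6, the substrate of S6 kinase, fell less, from 632 and 631 to 479 and 490 CPM (log2 fold change -0.38 ± 0.05 SE). All 7 genes in this paragraph passed the test, and the highest of their adjusted p-values was 1.5e-07, for Rps6.

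Some ribosomal proteins have a paralog, which in some cases can take their place. Per kilobase of exon, Rpl22 was at 173 CPM and its paralog Rpl22l1 at 52.8 CPM in 2D controls, a ratio of 3.27. In 2D the ratio was 3.51 in clone 1 and 6.57 in clone 2, and in 3D it was 4.61 in controls, 3.64 in clone 1 and 5.46 in clone 2. Rpl22l1 was at 108 and 102 CPM in 2D controls against 72.1 and 58.2 in clone 2, while Rpl22 was at 510 and 494 against 620 and 634. In that comparison Rpl22l1 was lower (log2 fold change -0.68 ± 0.10 SE, adjusted p = 9.94e-06) and Rpl22 higher (0.32 ± 0.05 SE, adjusted p = 1.24e-05). Rpl7 exceeded Rpl7l1 by 13.4 times in 2D controls and 10.6 times in 3D controls, and Rpl36a exceeded Rpl36al by 85.01 and 40.43 times. Rps27 exceeded its p53-responsive paralog Rps27l by 3.55 times in 2D controls and 4.81 times in 3D controls, though 98.5% of the windows of Rps27 are shared with other genes such as Rps27rt. These ratios depend on the length used. Per kilobase of mRNA instead of exon, the 2D and 3D control ratios were 5.57 and 7.86 for Rpl22, 23.02 and 18.2 for Rpl7, 113 and 53.9 for Rpl36a, and 6.56 and 8.88 for Rps27.

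Short mRNAs as a class were also lower in 3D. Among other protein-coding genes of up to 500 bases the median log2 fold change in controls was -1.03 (106 genes), against -1.07 for the 15 ribosomal protein genes of that length. From 1001 to 1500 bases the medians were -0.34 for 1255 other genes and -1.33 for 12 ribosomal protein genes, and above 4000 bases the other genes were at 0.36. Over all lengths up to 1500 bases, the medians were -0.45 (2071 genes) and -1.15 (70 genes). Within the set, the fold change did not follow mRNA length (Pearson r = 0.0044 over 77 genes sharing the same libraries) or the share of windows found in other genes (r = -0.024). Since 70 of the 77 have an mRNA of up to 1500 bases, the set says little about longer mRNAs. The longest were Rps15a (5130 bases) and Rps20 (3706 bases), and these lengths rest on the transcript chosen from the annotation. The part of mRNA length in the lower level of the shortest genes was not tested.

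**Figure D3:**
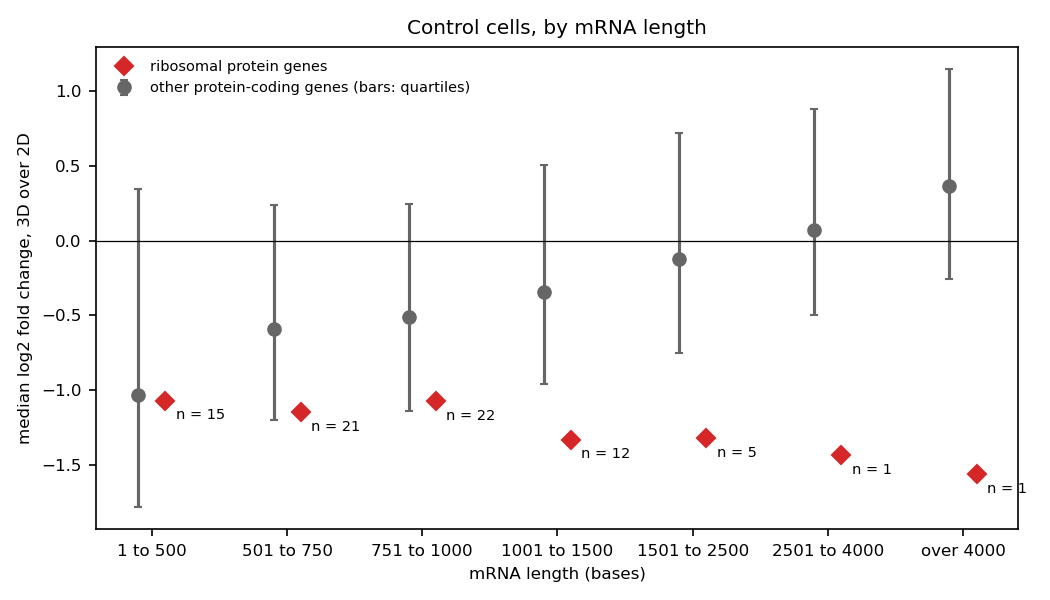
Median log2 fold change in control cells, 3D over 2D, by mRNA length in bases. Grey points with quartile bars are other protein-coding genes and red diamonds are ribosomal protein genes with their number. The grey medians climb from -1.03 to 0.36 with length, whereas the red medians stay between -1.56 and -1.07. From 2501 to 4000 bases and above 4000 bases each red point is 1 gene.

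Other gene lists tied to ribosomes showed values close to those of the set in some cases and not in others. Of 77 tested mitochondrial ribosomal protein genes, whose products build the separate ribosome of mitochondria, 70 fell and 1 rose in 3D controls (median -1.16). Of 60 ribosome biogenesis factors, 49 fell and 11 rose (median -1.06), with Ebna1bp2 at -2.17 ± 0.06 SE and Nop2 at -1.75 ± 0.05 SE. Of 20 genes for RNA polymerase I and 5S transcription, 14 fell and 1 rose (median -0.83), and Gtf3a, the factor for 5S genes, was at -2.85 ± 0.08 SE. Of 22 other TOP mRNAs for translation, 13 fell and 8 rose (median -0.55). Among those, Eef1g fell (-1.72 ± 0.06 SE) and Pabpc1, the polyA-binding protein, rose (3.17 ± 0.07 SE), as did Tpt1 (1.81 ± 0.07 SE). All 4 snoRNA host genes tested fell (median -1.17). Among all genes tested, 35.6% fell and 41.7% rose in 3D controls.

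Of 23 genes of mTORC1 and TOP mRNA control, 12 rose and 7 fell in 3D controls (median 0.31, range -1.58 to 3.70), shares near the 41.7% and 35.6% of all genes tested. The 4 with the smallest p were Eif4ebp2 (2.32 ± 0.08 SE), Deptor (2.36 ± 0.10 SE), Ddit4 (2.86 ± 0.12 SE) and Pdcd4 (3.70 ± 0.17 SE), all higher in 3D. Of 11 genes of the Myc network, 6 rose and 4 fell, and Myc itself rose (1.12 ± 0.06 SE) alongside its antagonists Mnt (2.62 ± 0.09 SE) and Mxi1 (2.00 ± 0.09 SE). Of 12 genes of the p53 and 5S particle list, 8 rose and 4 fell, with Cdkn1a at 6.16 ± 0.20 SE and Rps27l, itself a ribosomal protein gene here, at -1.39 ± 0.07 SE.

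The clones differed from control by far less than the formats did, and in a mixed direction. In clone 1 in 2D, 25 of 77 genes rose and 15 fell (median log2 fold change 0.07), against 19.8% and 20% of all genes tested (39.8% either way). The share that rose was 12 of 46 in the large subunit and 13 of 31 in the small. In clone 2 in 2D, 42 rose and 4 fell (median 0.15), against 18.9% and 15% (33.9% either way), and 22 of the 31 small subunit genes were among those that rose. That count was 29 (27 higher) without clone 2 replicate 2 in 2D, and in clone 1 the number that rose was 16 without clone 1 replicate 1 in 2D. With chromosomes centred, 12 rose and 2 fell in clone 1 in 2D. In 3D more of the genes fell than rose. There 9 rose and 37 fell in clone 1 (median -0.11, background 22% and 23%, 45.1% either way), and 2 rose and 20 fell in clone 2 (median -0.08, background 11.9% and 17.4%, 29.2% either way). The 9 that rose in clone 1 became 3 without either control replicate 1 or clone 1 replicate 1 in 3D. The 20 that fell in clone 2 became 11 without control replicate 2 in 3D, 13 without clone 2 replicate 1 in 3D, and 31 when 3D libraries were fitted alone.

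The difference of a gene in a clone varied with the chromosome it lies on. For each gene the median log2 fold change of the other tested genes of its chromosome was taken from the same comparison. Over the 77 genes, Pearson's r between the gene's own difference and that median was 0.862 for clone 1 and 0.715 for clone 2 in 2D, and 0.779 and 0.692 in 3D. Genes of 1 chromosome share the same median, so the points are not independent, and over the 19 chromosomes r was 0.942, 0.958, 0.934 and 0.927. For 3D against 2D in controls it was 0.0522 over genes and 0.358 over the 19 chromosomes. Chromosome copy number was not measured, and its part in these differences was not tested.

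In clone 1 all 7 genes on chromosome 11 were lower in 2D (median -0.34) and in 3D (median -0.57), where the other 1115 genes of that chromosome had medians of -0.38 and -0.43. The 7 include Rpl38, Rpl26, Rpl27, Rpl23a and Rps27a. Both genes on chromosome 16 were also lower in 2D (median -0.33, other genes -0.35) and in 3D (-0.44, other genes -0.32). On chromosome 17, 5 of 6 were higher in 2D (median 0.28, other genes 0.23), whereas in 3D 1 was higher and 2 were lower (median -0.08, other genes 0.27). On chromosome 7, which holds 14 genes of the set, 9 were higher in 2D and none lower (median 0.16, other genes 0.13), and in 3D 3 were higher and 1 lower (median -0.06, other genes 0.15). In clone 2 all 3 genes on chromosome 1 were lower in 3D (median -0.45, other genes -0.53) and 1 of the 3 in 2D (median -0.12, other genes -0.29). All 5 on chromosome 4 were higher in 2D (median 0.35, other genes 0.20) and 2 of the 5 in 3D (median 0.07, other genes 0.14). Over all genes tested, 19.8% rose and 20% fell in clone 1 in 2D, and 22% and 23% in 3D. For clone 2 these shares were 18.9% and 15% in 2D, and 11.9% and 17.4% in 3D. The shares called on each chromosome were not counted.

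**Figure D4:**
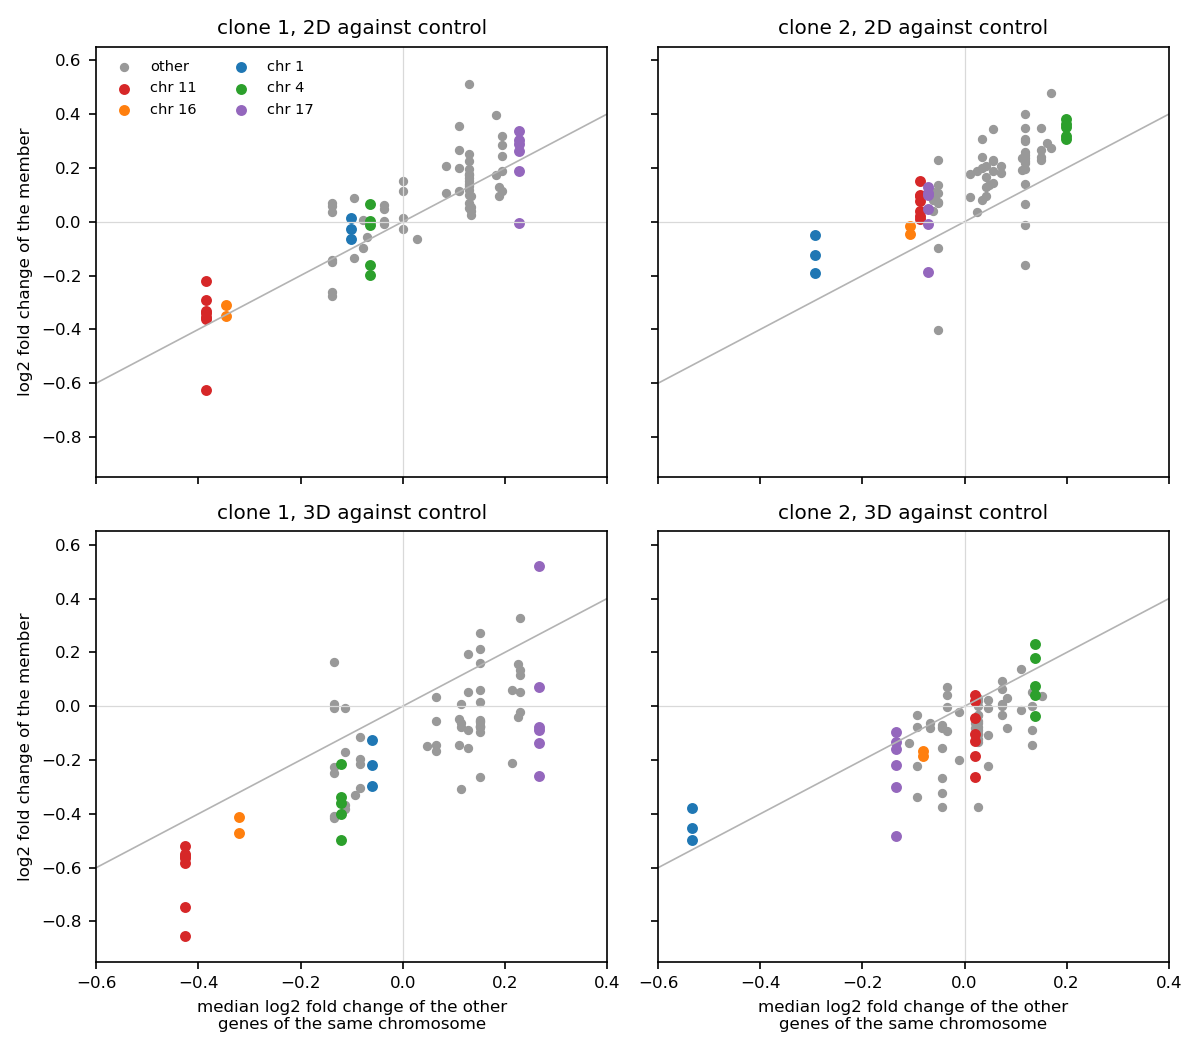
Log2 fold change of each ribosomal protein gene in a clone against control (vertical) beside the median log2 fold change of the other genes on its chromosome (horizontal), for 2 clones and 2 formats. The line marks equal values and 5 chromosomes are coloured. Chromosome 11 genes lie at the lower left in clone 1, and chromosome 1 genes at the lower left in clone 2.

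Rpl38, which is known for its part in translating Hox mRNAs in the embryo, differed most in clone 1. Its 2D levels were 469 and 429 CPM (control), 297 and 286 CPM (clone 1) and 443 and 462 CPM (clone 2). Its 3D levels were 145 and 149 CPM (control), 84.7 and 78.6 CPM (clone 1) and 135 and 140 CPM (clone 2). Clone 1 lay below control and clone 2 in both formats, by log2 fold changes of -0.62 ± 0.06 SE in 2D (adjusted p = 1.59e-09) and -0.85 ± 0.06 SE in 3D (adjusted p = 4.42e-12) against control. Less the median of chromosome 11 these were -0.24 and -0.43. Rpl26, an exit tunnel protein, was at 115 and 98.7 CPM in 2D controls and 91.1 and 77.9 in clone 1, and at 89.6 and 83.7 in 3D controls and 55.9 and 47.6 in clone 1 (log2 fold changes -0.33 ± 0.09 and -0.75 ± 0.08 SE). Rpl27, at -0.36 ± 0.05 SE, and Rps27a, which is made as a fusion with ubiquitin, at -0.36 ± 0.06 SE, fell in clone 1 in 2D, and both changed sign to 0.03 and 0.04 once each chromosome was centred.

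Among the genes higher in clone 1 in 2D, Rps16 was at 114 and 119 CPM in controls and 166 and 167 in clone 1 (log2 fold change 0.51 ± 0.08 SE, adjusted p = 4.72e-06). Rps29, a zinc-binding small subunit protein, was at 341 and 337 against 448 and 446 CPM (0.40 ± 0.05 SE), and Rps21 rose by 0.35 ± 0.06 SE. Rps2, which sits at the mRNA entry channel, showed the widest gap between the clones in 3D. The 2D libraries held 1533 and 1501 CPM (control), 1894 and 1936 CPM (clone 1) and 1569 and 1565 CPM (clone 2). The 3D libraries held 636 and 645 CPM (control), 962 and 877 CPM (clone 1) and 461 and 456 CPM (clone 2). In 3D clone 1 was above control (0.52 ± 0.05 SE, adjusted p = 4.39e-09) and clone 2 below it (-0.48 ± 0.05 SE, adjusted p = 3.73e-08). Of the windows of Rps2, 71.1% occur in other genes. Rplp0 rose in clone 1 in 3D, from 1067 and 1120 to 1379 and 1366 CPM (0.33 ± 0.05 SE, adjusted p = 4.33e-06), and Rpl13a, a component of the GAIT translation control complex, from 33.9 and 34.7 to 42.4 and 40.5 CPM (0.27 ± 0.08 SE, adjusted p = 0.00524). In that comparison the other genes had medians of 0.27 on chromosome 17 (Rps2), 0.23 on chromosome 5 (Rplp0) and 0.15 on chromosome 7 (Rpl13a). For clone 2 in 3D the median on chromosome 17 was -0.13. For clone 1 in 2D the medians were 0.13 on chromosome 7 (Rps16), 0.18 on chromosome 12 (Rps29) and 0.11 on chromosome 2 (Rps21).

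Among the genes that rose in clone 2 in 2D were Rps29 (477 and 466 CPM against 341 and 337 in controls, log2 fold change 0.48 ± 0.05 SE) and Rps20 (1221 and 1289 against 968 and 956, 0.38 ± 0.05 SE). Rpl14 fell most, from 1260 and 1170 CPM to 942 and 895 (-0.40 ± 0.05 SE, adjusted p = 1.84e-06), while the median of the other genes of its chromosome 9 was -0.05. In 3D it was lower as well, at 358 and 378 CPM against 452 and 468 (-0.32 ± 0.05 SE). Rpl37a (-0.19 ± 0.05 SE) and Rps28 (-0.19 ± 0.06 SE) also fell in 2D, and Rpl37a, on chromosome 1, changed sign to 0.15 with chromosomes centred. Without control replicate 1 in 2D the 4 genes lower in clone 2 became 1, which was Rpl14, and Rpl37a and Rps28 no longer passed. The 4 became 2 without clone 2 replicate 2 in 2D, where Rps28 did not pass, and Rpl37a did not pass without clone 2 replicate 1. In 3D Rpl22 (0.23 ± 0.05 SE) and Rps20 (0.18 ± 0.05 SE) rose in clone 2. Without either control replicate 2 or clone 2 replicate 2 in 3D those 2 became 1, as Rps20 no longer passed, and with chromosomes centred neither passed. Rpl31, Rps2 and Rpl37a fell most there, and Rpl31 was at 230 and 233 CPM against 330 and 323 in controls (-0.50 ± 0.05 SE), a difference that changed sign to 0.05 with chromosomes centred.

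Set directly against clone 1, clone 2 had 33 genes higher and 9 lower in 2D (background 23.2% and 18.4%, 41.6% either way) and 26 higher and 20 lower in 3D (background 26.4% and 28.5%, 54.9% either way). In 2D Rpl38 (0.64 ± 0.06 SE), Rps20 (0.54 ± 0.05 SE) and Rpl22 (0.52 ± 0.05 SE) were the most raised, and Rpl14 (-0.46 ± 0.05 SE) and Rps28 (-0.38 ± 0.06 SE) were among the lowered, the last with a sign that turned to 0.01 with chromosomes centred. In 3D Rpl38 (0.75 ± 0.06 SE), Rpl22 (0.73 ± 0.05 SE) and Rpl26 (0.62 ± 0.08 SE) were the most raised and Rps2 (-1.004 ± 0.05 SE), Rpl13a (-0.65 ± 0.08 SE) and Rpsa (-0.54 ± 0.05 SE) the most lowered. There the other genes had medians of 0.46 on chromosome 11 (Rpl38 and Rpl26) and 0.25 on chromosome 4 (Rpl22). On chromosomes 17 (Rps2), 7 (Rpl13a) and 9 (Rpsa) the medians were -0.39, -0.13 and 0.10. The 2D split was 31 higher and 15 lower without clone 1 replicate 2 in 3D, and 36 and 5 without clone 1 replicate 1 in 2D. It became 32 against 15 under DESeq2 size factors, 32 against 16 when Gm26917 and Gm42418 were left out, and 32 against 3 after chromosomes were centred. The 20 lower in 3D became 12 without clone 1 replicate 1 and 13 without clone 2 replicate 1 in 3D.

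Whether a clone's difference from control depended on format was tested as an interaction. In clone 1, 24 of 77 genes passed and all 24 were lower in 3D relative to 2D (median -0.19, with 72 of 77 negative), while 3.44% of all genes passed as lower and 3.57% as higher (7.02% either way). In clone 2, 44 passed and all 44 were lower (median -0.26, with 75 negative), against 14.8% lower and 7.43% higher among all genes (22.2% either way). The median over all genes in clone 2 was -0.06. Short mRNAs outside the set were lower too in that interaction. Other protein-coding genes of up to 500 bases had a median of -0.29 (106 genes), against -0.26 for the 15 ribosomal protein genes. From 501 to 750 bases both medians were -0.24. Over all lengths up to 1500 bases they were -0.15 and -0.26 in clone 2, and -0.02 and -0.20 in clone 1. The part of mRNA length in these interactions was not tested. The count in clone 1 rested on few libraries. It was 5 without clone 1 replicate 2 in 3D (4 lower), 7 without control replicate 2 in 3D, 12 without clone 1 replicate 1 in 2D, 12 with chromosomes centred and 15 without control replicate 1 in 3D. In clone 2 it was 28 without clone 2 replicate 1 in 3D and 29 without control replicate 2 in 3D. The median of the set stayed negative in all 20 alternatives that fit both formats, from -0.24 to -0.14 in clone 1 and from -0.29 to -0.21 in clone 2.

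Less the median of their chromosome, 50 genes were above and 27 below in clone 1 in 2D, and 10 above and 67 below in 3D. In clone 2 the split was 71 above and 6 below in 2D and 18 and 59 in 3D. For the interaction it was 5 above and 72 below in clone 1 and 7 above and 70 below in clone 2.

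Rps16 had the largest interaction in clone 1, being above control in 2D and at 273 and 271 CPM against 283 and 292 in 3D (interaction -0.59 ± 0.10 SE, adjusted p = 0.000358). Rps6 was next, at 683 and 638 CPM against 632 and 631 in 2D, where it did not pass, and at 377 and 358 against 479 and 490 in 3D (interaction -0.47 ± 0.07 SE, adjusted p = 8.2e-05). In clone 2 the largest were Rpl13a and Rps2. Rpl13a was at 133 and 121 CPM against 118 and 99.5 in 2D and at 26.0 and 27.0 against 33.9 and 34.7 in 3D (interaction -0.60 ± 0.11 SE, adjusted p = 0.000228). Its exons overlap other genes, among them Snord33, over 35.4% of their length. Rps2 in clone 2 did not pass against control in 2D (0.05 ± 0.05 SE) and was below it in 3D (interaction -0.53 ± 0.07 SE, adjusted p = 6.99e-06). All 3 stalk genes passed in clone 2, and none of them in clone 1, though the gap between the clones' interactions was not tested.

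**Figure D5:**
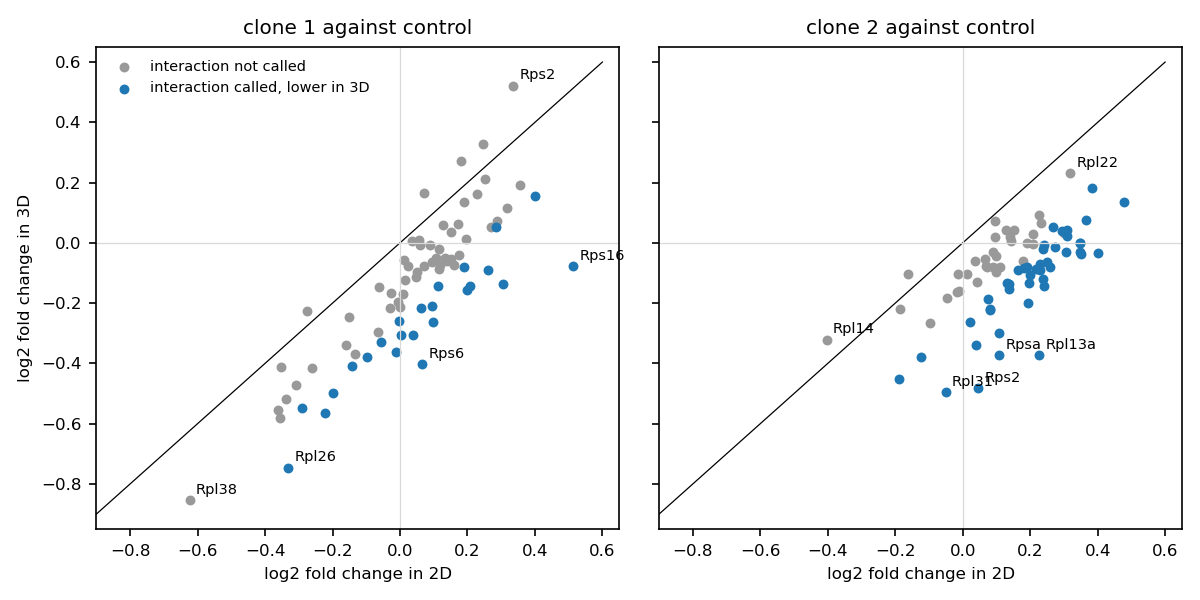
Log2 fold change of each of the 77 genes against control in 2D (horizontal) and in 3D (vertical), clone 1 at left and clone 2 at right. The line marks equal values and blue points passed the interaction test. In clone 1, 72 genes lie below the line, and in clone 2, 75.

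The other ribosome lists were counted in the same fits. For the interaction in clone 1, 2 of 77 mitochondrial ribosomal protein genes and 8 of 60 biogenesis factors passed as higher (medians 0.02 and 0.08). None of them passed as lower, and among all genes 3.57% passed as higher and 3.44% as lower. In clone 2, 23 mitochondrial ribosomal protein genes and 33 biogenesis factors passed as lower and none as higher (medians -0.20 and -0.29), with Ncl, or nucleolin, at -0.76 ± 0.10 SE. The shares of all genes there were 14.8% lower and 7.43% higher. In clone 2 against control in 3D, 39 of the 60 biogenesis factors fell and 1 rose (median -0.21). Among all genes 17.4% fell and 11.9% rose in that comparison. Other TOP mRNAs had 2 lower and none higher in the interaction for clone 1, and 11 lower and 1 higher for clone 2.

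Genes with CCGGAAGT in the promoter can be set beside those without it, as a description. In 2D 2 of the 11 rose and 3 fell in clone 1 (median 0.01), where 16 of the 46 without it rose and 8 fell (median 0.09). In clone 2 in 2D 3 rose and none fell (median 0.11), where 29 of the 46 rose and 3 fell (median 0.19). In clone 1 in 3D 1 of the 11 rose and 8 fell (median -0.19), where 6 of the 46 rose and 18 fell (median -0.08). In clone 2 in 3D none rose and 4 fell (median -0.14), where 1 of the 46 rose and 10 fell (median -0.08). Of all genes tested, 19.8% rose and 20% fell in clone 1 in 2D, and 18.9% and 15% in clone 2. The shares in 3D were 22% and 23% in clone 1, and 11.9% and 17.4% in clone 2. Rpl26 on chromosome 11 and Rpl31 on chromosome 1 are among the 11, and the part of the chromosome in these counts was not tested. In 3D against 2D in controls, the medians were -1.06 with the sequence and -1.20 without it. For genes with a pyrimidine run at the start they were -1.25 with and -1.11 without.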

How the data were processed

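The authors deposited raw counts per gene in 2 tables, 1 for each culture format. The extraction protocol in the labels names a stranded polyA library kit. The submitters' processing notes name mm10, featureCounts, STAR 2.7.9a and FastQC 0.11.9, besides Cell Ranger 3.0.0 and R 4.1.1, with no role or order. No row lacked a gene name. The tables were joined by symbol and fitted with edgeR 4.0.16 in R 4.3.3 (filterByExpr, TMM, quasi-likelihood test, 1 mean per group over all 12 libraries, Benjamini-Hochberg over 13763 genes, adjusted p under 0.05). The biological coefficient of variation was 4.51% with 6 residual degrees of freedom. CPM are scaled by TMM. Positions and mRNAs came from GENCODE M21, and promoters from RefSeq, both GRCm38.

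Named genes were the largest called changes in each comparison (3 in each direction for comparisons of groups, 2 for interactions), the 3 most abundant per length, and the stalk, 5S, Rpsa, Rps6 and paralog genes. In other lists, up to 4 genes of smallest p could be named. Some genes that the rule picks are not reported here. Members and lists were chosen with earlier results of these data known. The 21 alternatives included DESeq2 1.42.0, 2 looser filters, other scalings, chromosomes centred, 1 format alone, a replicate block and each library left out. Scripts were tested on simulated data. Replicates of every group differed beyond counting noise.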

Additional observations from a re-analysis of the deposited data

Results flagged for a closer look

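The difference between clone and control differed between formats by the interaction test for 24 genes in clone 1 and 44 in clone 2, and the values that follow are log2 interactions of genes the naming rule picks. In clone 1 these were Rps16 at -0.59, Rps6 at -0.47, Rpl11 at -0.35, Rps4x at -0.35 and Rpl22 at -0.30. In clone 2, Rpl13a was at -0.60, Rps2 at -0.53, Rpsa at -0.48, Rpl11 at -0.39 and Rplp0 at -0.38. Rplp2 was at -0.30, Rplp1 at -0.30, Rps27l at -0.29, Rps6 at -0.27, Rps27 at -0.26, Rpl36a at -0.26 and Rpl7 at -0.26. All are lower in 3D relative to 2D. Other protein-coding genes of up to 1500 bases also had a negative median interaction in clone 2 (-0.15). Both interactions share the control libraries, and the pairs of comparisons in each clone rest on 2 libraries per group.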

How the results depend on the processing

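Of 147 results for named genes under the alternatives, 99 kept their direction and their side of the threshold throughout. The number of genes called moved by more than 1.5 times with chromosomes centred, to 14 (12 higher, 2 lower) in clone 1 in 2D and to 12 in the interaction of clone 1, and to 34 with 3D libraries alone in clone 2 in 3D. Leaving out 1 library gave 29 to 47 genes in clone 2 in 2D, 12 to 26 in clone 2 in 3D, 5 to 32 in the interaction of clone 1 and 28 to 49 in that of clone 2. For other comparisons it gave 32 to 41 (clone 1, 2D), 34 to 49 (clone 1, 3D), 35 to 47 and 37 to 49 (clone 2 against clone 1, 2D and 3D) and 75 to 77 (3D against 2D, control). The median of the set in clone 2 against clone 1 in 3D turned to -0.0079 without clone 1 replicate 2 in 3D and ranged up to 0.061 with other libraries left out.

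With chromosomes centred the sign turned for Rpl27 (0.0303), Rps27a (0.0377) and Rplp1 (0.0339) in clone 1 in 2D, Rpl37a in clone 2 in 2D (0.15) and 3D (0.0906), and Rpl31 (0.0457) and Rpl7 (0.16) in clone 2 in 3D. In clone 2 against clone 1 it turned for Rps28 (0.0095) and Rps6 (-0.0144) in 2D and for Rplp1 (-0.0024), Rpl11 (-0.0035) and Rpl7 (0.28) in 3D. These follow from the construction, which subtracts the median of the chromosome.

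The share of counts with 8 ribosomal protein genes outside the naming rule added was 7.58% in controls, 7.56% in clone 1 and 8.06% in clone 2 in 2D, and 3.31%, 2.86% and 3.26% in 3D. Without Gm26917 and Gm42418 in the total it was 7.68% in clone 2 in 2D, and 3.62%, 3.21% and 3.51% in 3D.

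No broad shift shared by same-numbered libraries was seen, since their deviations correlated between -0.045 and 0.022. These correlations cannot show whether such libraries shared a culture, day or batch. With the replicate number as a block the counts of genes called were 40 and 44 in 2D and 46 and 21 in 3D for clones 1 and 2, 41 and 46 for clone 2 against clone 1, 76, 77 and 77 for the formats and 22 and 43 for the interactions. With 2 libraries per group, the spread of each gene leans on that of all genes.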
